A study of Homo sapiens with 12 samples.

Results

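The hepatocyte transcription factors HNF4A, HNF4G, FOXA1, FOXA2, FOXA3, CEBPA, ONECUT1 and PROX1 were read on one-color expression arrays of 2 human hepatocellular carcinoma (HCC) cell lines, HA22T and PLC5. They were chosen by name, as factors known for their roles in the liver, with earlier results of these data known. Each probe was assigned to a gene through its RefSeq transcript, which gave 9 probes for the 8 genes, of 50599 probes and 20503 named genes in all. HNF4G had 2 probes and each other gene had 1.

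The study examined GALNT1, an enzyme that starts mucin-type O-glycosylation by adding N-acetylgalactosamine to serine and threonine. Both lines were transfected with siRNA at 10 nM by Lipofectamine RNAiMAX for 48 h. The control arrays carried a non-targeting siRNA (siControl) and the knockdown arrays a pool of siRNAs against GALNT1 (siGALNT1), so every culture had been exposed to siRNA and transfection reagent and none was untreated. Each of the 4 groups, HA22T siControl, HA22T siGALNT1, PLC5 siControl and PLC5 siGALNT1, had 3 arrays. The labels do not say whether the 3 arrays came from separate cultures, so the p-values below measure only the spread between these samples, which may be technical. Each line is an established tumor cell line, and a difference between the lines is a difference between these 2 lines only.

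Hepatocytes keep their identity through a small group of transcription factors that bind together at liver enhancers and promoters and that also bind at one another's genes. The nuclear receptors of the HNF4 family and the forkhead factors of the FOXA family stand at its center, C/EBP-alpha (CEBPA) drives genes of metabolism and of the differentiated state, and the homeodomain factors HNF6 (ONECUT1) and PROX1 act from the early liver bud onward. In HCC, loss of HNF4A is known to accompany loss of hepatocyte products and a shift toward mesenchymal traits.

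The promoters of these genes are shown to place the measured transcripts and the letters of the network's own binding motifs in them. In the RefSeq promoter table of GRCh38.p14, 5 of the 8 genes had an entry (HNF4A with 2 starts), and the 250 bases before each start are printed 5′ to 3′ on the strand of the gene. Capitals mark matches on either strand to motifs of factors of the network or to a TATA box. The upstream HNF4A start (chr20:44355449-44355698, plus strand), the downstream HNF4A start (chr20:44400989-44401238, plus strand), CEBPA (chr19:33302535-33302784, minus strand) and ONECUT1 (chr15:52790337-52790586, minus strand) belong to genes with a large difference between the lines. FOXA1 (chr14:37595250-37595499, minus strand) and FOXA3 (chr19:45864076-45864325, plus strand) belong to genes whose difference did not pass the test.
HNF4A, upstream start: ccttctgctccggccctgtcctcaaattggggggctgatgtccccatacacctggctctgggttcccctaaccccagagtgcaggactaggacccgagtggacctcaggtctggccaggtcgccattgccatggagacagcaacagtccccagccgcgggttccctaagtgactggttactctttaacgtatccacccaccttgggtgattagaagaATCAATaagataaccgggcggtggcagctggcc
HNF4A, downstream start: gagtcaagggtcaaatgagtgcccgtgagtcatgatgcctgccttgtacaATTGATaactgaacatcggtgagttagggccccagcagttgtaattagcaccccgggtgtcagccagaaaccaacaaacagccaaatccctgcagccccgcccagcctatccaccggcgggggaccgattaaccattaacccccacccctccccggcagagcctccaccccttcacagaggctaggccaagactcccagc
CEBPA: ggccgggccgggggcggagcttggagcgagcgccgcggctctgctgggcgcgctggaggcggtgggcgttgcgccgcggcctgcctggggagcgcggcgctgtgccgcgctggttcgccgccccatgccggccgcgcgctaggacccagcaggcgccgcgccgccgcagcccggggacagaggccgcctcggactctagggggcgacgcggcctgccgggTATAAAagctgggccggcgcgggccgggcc
ONECUT1: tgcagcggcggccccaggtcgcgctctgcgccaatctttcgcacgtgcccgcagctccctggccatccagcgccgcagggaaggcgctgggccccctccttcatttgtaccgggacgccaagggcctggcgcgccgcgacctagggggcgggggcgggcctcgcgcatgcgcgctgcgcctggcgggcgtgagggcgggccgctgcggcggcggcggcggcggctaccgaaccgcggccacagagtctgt
FOXA1: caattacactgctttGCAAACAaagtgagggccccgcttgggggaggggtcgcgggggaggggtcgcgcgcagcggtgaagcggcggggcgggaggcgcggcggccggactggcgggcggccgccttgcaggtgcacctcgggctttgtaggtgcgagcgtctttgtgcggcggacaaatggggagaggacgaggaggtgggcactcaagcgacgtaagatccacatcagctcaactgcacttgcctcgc
FOXA3: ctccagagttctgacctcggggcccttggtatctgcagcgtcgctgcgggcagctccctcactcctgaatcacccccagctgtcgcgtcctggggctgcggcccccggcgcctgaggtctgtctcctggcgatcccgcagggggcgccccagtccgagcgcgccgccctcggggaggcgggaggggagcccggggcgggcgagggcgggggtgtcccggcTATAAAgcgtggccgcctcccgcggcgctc

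The motifs searched on both strands were ATCAAT or GTCAAT for ONECUT factors, TGTTTAC or TGTTTGC or TATTTAC or TATTTGC for FOXA factors, CAAAGTCCA for HNF4, TTGCNNAA for C/EBP factors and TATAAA for the TATA box. Both HNF4A windows held an ONECUT motif, at 33 bases before the upstream start and at 200 bases before the downstream start, and 10.3% of all 35116 windows held one. CEBPA and FOXA3 each had a TATA box 30 bases before the start (10.7% of all windows), and FOXA1 had a FOXA motif 235 bases before its start (10.6%). No window held the HNF4 motif (0.325%) or the C/EBP motif (9.05%), and the ONECUT1 window held none of the 5 motifs. The GC content was 58.4% and 58.0% in the upstream and downstream HNF4A windows and 67.2% to 81.2% in the other 4, where the median over all windows was 58.0%. The array has a single HNF4A probe, assigned through 1 RefSeq transcript, so which of the 2 starts the transcripts came from and which isoforms the probe reads are not known here, and its values may leave out some isoforms.

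Values are log2 of the processed signal minus the 75th percentile of the same array, so that 0 is the brightness of that percentile, and each probe was compared only with itself between arrays. Of 58717 spots that are not controls, 36679 to 48873 per array were well above background, no spot was saturated, and replicate arrays correlated at 0.968 to 0.988. The GALNT1 probe with the higher signal read lower in siGALNT1 in both lines, by a log2 difference of -5.10 ± 0.61 (SE) in HA22T and -3.72 ± 0.61 in PLC5, with no overlap between the groups and limma adjusted p-values of 0.0708 and 1.00, and its dimmer probe had -4.75 (adjusted p = 0.0305) and -3.03 (adjusted p = 1.00). Slide 1 carried the 6 HA22T arrays together with replicate 1 of both PLC5 groups, and slide 2 carried the other 4 PLC5 arrays. Line differences are therefore also given with slide as a block and within slide 1, where PLC5 has 1 array per siRNA and is assumed to vary like HA22T. HA22T replicates 1 to 3 and PLC5 replicates 1 to 3 are named in that order below.

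HNF4A, FOXA2, CEBPA and ONECUT1 were higher in PLC5 than in HA22T, PROX1 was detected in PLC5 only, and HNF4G, FOXA1 and FOXA3 did not pass the test in either direction. In the siControl arrays, 5 of 8 genes were called higher in PLC5 and 0 higher in HA22T, at a limma Benjamini-Hochberg adjusted p under 0.05. PROX1 entered the test through its PLC5 arrays alone, and among the other 7 genes, read above background on at least 1 array of each group, 4 were called. Of these 4, FOXA2 was well above background on 1 of 3 HA22T siControl arrays and also reached the filter only with its PLC5 arrays. HNF4A, CEBPA and ONECUT1 were well above background on every HA22T siControl array with a value. Over the 38011 probes tested, 11.0% were called higher in PLC5 and 11.0% higher in HA22T. With each gene read from 1 probe, 12.4% of 17417 genes were higher in PLC5 and 14.2% higher in HA22T. The median log2 difference of the 8 genes was 2.80, against -0.10 over all genes tested. Setting PROX1 at its bound could not change this median, since PROX1 stays above the middle values either way. The same 5 genes were called higher in PLC5 in the siGALNT1 arrays, where 13.1% of 36741 probes were called higher in PLC5 and 9.79% higher in HA22T. Those are other arrays of the same 2 lines and share the fit's estimate of the spread with the siControl arrays. In RNA from whole cultures, fewer cells of a type and less RNA per cell cannot be told apart.

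**Figure D1:**
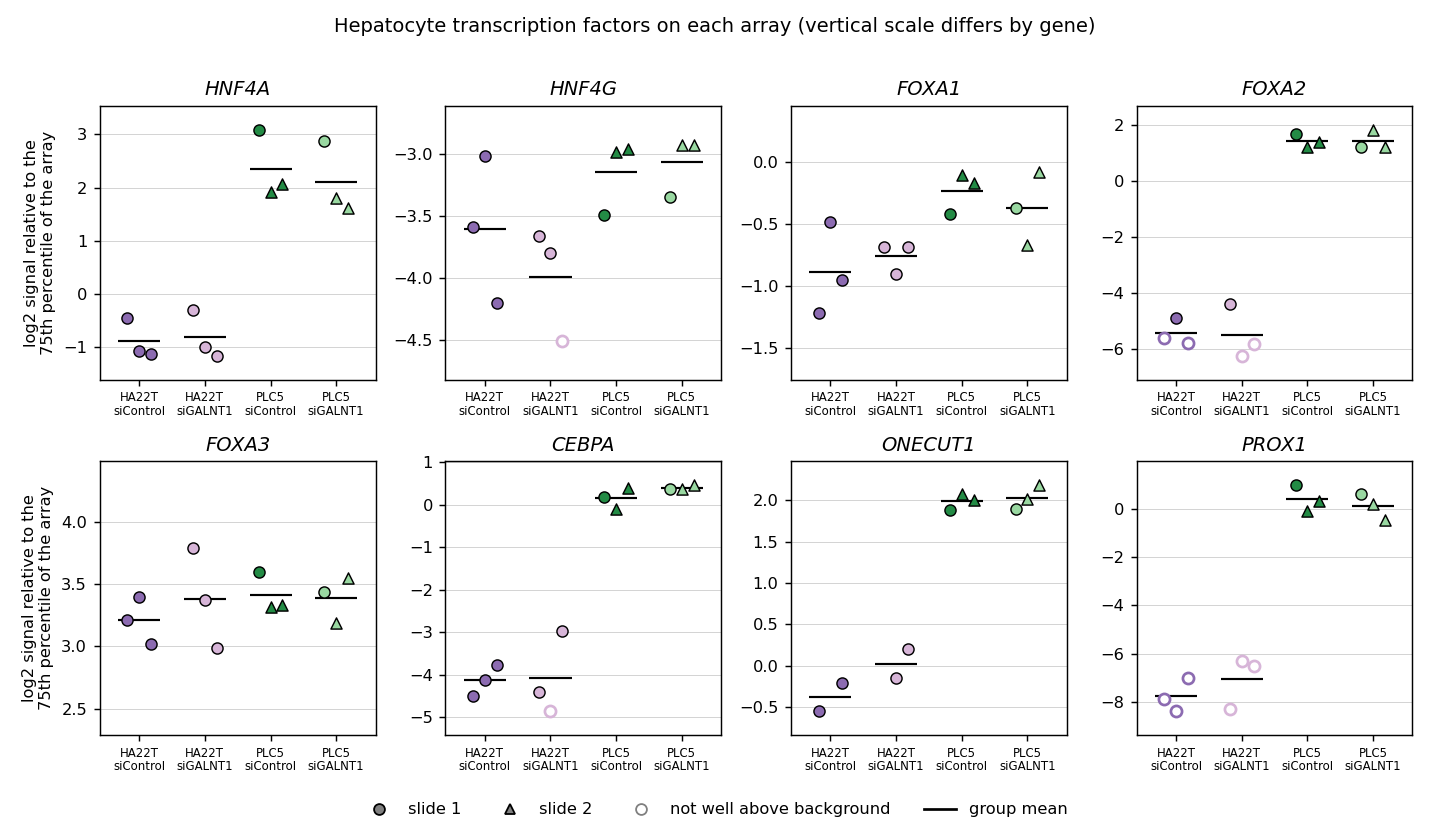
Log2 signal of each gene, relative to the 75th percentile of the array, on the 12 arrays in 4 groups of 3, with circles for slide 1, triangles for slide 2, open symbols for spots not well above background and lines for group means (the vertical scale differs by gene). HNF4A, FOXA2, CEBPA, ONECUT1 and PROX1 are higher on every PLC5 array than on every HA22T array with a value, whereas FOXA3 overlaps between the lines.

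Among the nuclear receptors, HNF4A, which binds as a dimer at the promoters of many genes for secreted liver proteins, read -0.46, -1.08 and -1.13 on the HA22T siControl arrays and 3.09, 1.91 and 2.06 on the PLC5 siControl arrays. On the siGALNT1 arrays it read -0.30, -0.99 and -1.17 in HA22T and 2.88, 1.81 and 1.62 in PLC5. Every array was well above background and the lines did not overlap, and in PLC5 the replicate 1 arrays, the pair on slide 1, were the highest in both groups. HNF4A was 9.47-fold higher in PLC5 siControl (log2 difference 3.24 ± 0.43, SE, limma adjusted p = 0.000211) and 7.59-fold higher in PLC5 siGALNT1 (2.92 ± 0.43, adjusted p = 0.000463). With slide as a block the siControl log2 difference was 4.00 (adjusted p = 3.54e-05), and within slide 1 it was 3.98 (adjusted p = 0.00425). The HNF4A probe ranked 1361 by absolute line difference among the 38011 probes tested.

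HNF4G, the related receptor best known from intestine and kidney, was read from the brighter of its 2 probes and was dim in both lines. It read -3.59, -3.02 and -4.20 in HA22T siControl and -3.49, -2.99 and -2.96 in PLC5 siControl, so that the lines overlapped. The log2 difference was 0.46 (95% confidence interval -0.31 to 1.22, limma adjusted p = 0.406). In the siGALNT1 arrays the values were -3.66, -3.80 and -4.50 in HA22T, the last not well above background, and -3.35, -2.93 and -2.93 in PLC5. There the lines did not overlap, and the log2 difference of 0.92 (0.16 to 1.68) had an adjusted p of 0.0804. Its other probe was well above background on 1 of 3 arrays in 3 of the groups and on 2 of 3 in PLC5 siGALNT1, and was too dim to be tested in siControl. In siGALNT1 that probe overlapped between the lines, with a log2 difference of 0.47 (limma adjusted p = 0.532).

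The forkhead factors FOXA1, FOXA2 and FOXA3 can open compacted chromatin at liver enhancers, and they differed in how they compared between the lines. FOXA2 read -5.59, -4.90 and -5.79 in HA22T siControl, and only the second of these was well above background. In PLC5 siControl it read 1.66, 1.21 and 1.39, all well above background. On the siGALNT1 arrays it read -4.38, -6.24 and -5.82 in HA22T, with only the first well above background, and 1.22, 1.82 and 1.22 in PLC5. FOXA2 was thus near the limit of detection in HA22T and bright in PLC5, with no overlap. The fitted log2 difference was 6.85 ± 0.44 (SE, limma adjusted p = 1.19e-06) in siControl and 6.90 ± 0.44 (adjusted p = 1.20e-06) in siGALNT1. Both sizes rest on HA22T groups in which only 1 of 3 readings was well above background. Slide as a block gave 6.87 and slide 1 alone gave 7.09 in siControl. With another background correction (normexp) the values were 5.39 in siControl and 5.07 in siGALNT1.

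FOXA1, a factor shared by liver, breast and prostate, was read from 10 spots per array, of which 4 to 10 were left after non-uniform spots were removed. It read -1.22, -0.48 and -0.95 in HA22T siControl and -0.42, -0.11 and -0.17 in PLC5 siControl. The lowest PLC5 array and the highest HA22T array were thus close, although the groups did not overlap. The log2 difference was 0.65 ± 0.26 (SE, limma adjusted p = 0.107), and it was 0.38 ± 0.26 (adjusted p = 0.329) in siGALNT1. The highest HA22T siControl value came from the array with only 4 uniform spots, whose spots had an SD of 0.50, where the 10 spots of the replicate 1 array had an SD of 0.11. FOXA3, which is found in liver and other endoderm-derived tissue, was bright in both lines. It read 3.21, 3.39 and 3.02 in HA22T siControl and 3.60, 3.31 and 3.33 in PLC5 siControl, and these ranges overlapped. The log2 difference was 0.20 (95% confidence interval -0.37 to 0.78, adjusted p = 0.640) in siControl and 0.01 (-0.56 to 0.58, adjusted p = 0.986) in siGALNT1, and these intervals contain no difference of 1 log2 unit in either direction.

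CEBPA, the bZIP factor that restrains proliferation and turns on metabolic genes in hepatocytes, was dim in HA22T. It read -4.50, -4.13 and -3.76 there in siControl and 0.19, -0.10 and 0.39 in PLC5. In siGALNT1 it read -4.40, -4.86 and -2.98 in HA22T, the second not well above background, and 0.36, 0.38 and 0.46 in PLC5. The lines did not overlap, and the 3 PLC5 siGALNT1 arrays had an SD of 0.05, where the HA22T siGALNT1 arrays had an SD of 0.98. CEBPA was 19.5-fold higher in PLC5 siControl (log2 difference 4.29 ± 0.42, SE, limma adjusted p = 2.41e-05) and 22.3-fold higher in PLC5 siGALNT1 (4.48 ± 0.42, adjusted p = 1.83e-05). Within slide 1 the siControl difference was 4.32 (adjusted p = 0.0134), with slide as a block it was 4.28 (adjusted p = 0.000310), and with the normexp correction it was 3.50.

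ONECUT1 encodes HNF6, a homeodomain factor with a cut domain that acts in the development of liver and pancreas. The spots of HA22T siControl replicate 2 and HA22T siGALNT1 replicate 1 were flagged as non-uniform and were left out, so HA22T has n = 2 in each group. The remaining HA22T arrays read -0.55 and -0.21 in siControl and -0.15 and 0.20 in siGALNT1, and the PLC5 arrays read 1.88, 2.07 and 2.00 in siControl and 1.90, 2.02 and 2.18 in siGALNT1. All of these were well above background, and the lines did not overlap. ONECUT1 was 5.16-fold higher in PLC5 siControl (log2 difference 2.37 ± 0.27, SE, limma adjusted p = 0.000208) and 4.01-fold higher in PLC5 siGALNT1 (2.01 ± 0.27, adjusted p = 0.000618). With the 2 non-uniform spots kept, which read -0.22 and 1.24, the log2 differences were 2.31 and 1.60. Within slide 1, the siControl difference was 2.26 (adjusted p = 0.0484) and the siGALNT1 difference of 1.87 no longer passed (adjusted p = 0.0770).

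PROX1, a homeodomain factor of early hepatoblasts and of lymphatic endothelium that also acts as a co-repressor of HNF4A, was not detected in HA22T. None of the 6 HA22T arrays was well above background, with readings of -7.88, -8.37 and -7.0 in siControl and -8.29, -6.29 and -6.52 in siGALNT1, which bound the level only from above. The PLC5 arrays, all well above background, read 0.97, -0.11 and 0.31 in siControl and 0.60, 0.21 and -0.48 in siGALNT1. With HA22T set at a bound, PROX1 was 61.4-fold higher in PLC5 siControl and 33.9-fold higher in PLC5 siGALNT1. The bound sets each HA22T array at its floor, the lowest signal that any probe well above background had on it, or at PROX1's own reading if that was higher. The fitted differences had limma adjusted p-values of 1.78e-06 in siControl and 4.93e-06 in siGALNT1. The adjusted p-values rest on HA22T readings below background, and the probe passed the filter only through its PLC5 arrays. The bounds, 5.94 and 5.08 on the log2 scale, are not strict minima. FOXA2 on HA22T siControl replicate 1 read -5.59, above that array's floor of -5.71, and was not well above background. The fitted differences with the normexp correction, 5.04 in siControl and 4.58 in siGALNT1, also lie below the bounds. The fitted siControl log2 difference of 8.14 was 8.67 with slide as a block and 8.72 within slide 1. In the siGALNT1 arrays the fitted 7.14 became 6.52 without HA22T siGALNT1 replicate 1.

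An exact two-sided permutation test of 3 against 3 arrays cannot give a p below 0.1, and it gave 0.1 for the siControl line difference of HNF4A, FOXA1, FOXA2 and CEBPA. ONECUT1, with 2 against 3 arrays, gave 0.1 as well.

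**Figure D2:**
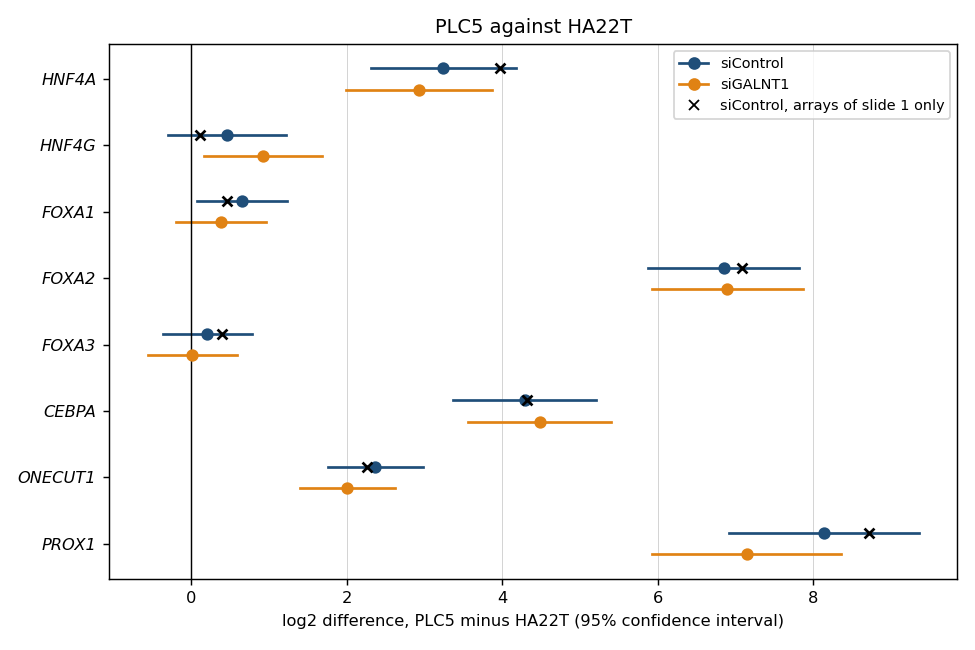
Log2 difference between PLC5 and HA22T with its 95% confidence interval from limma, in siControl (blue) and siGALNT1 (orange) arrays, with crosses for the siControl difference within slide 1. The intervals of HNF4A, FOXA2, CEBPA, ONECUT1 and PROX1 lie above 1 in both siRNA states, those of FOXA3 include 0, and the points rest on HA22T readings that were all below background for PROX1 and mostly so for FOXA2.

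The other factors of the hepatocyte network did not share one direction. Of 25 such genes, 24 were bright enough to be tested in siControl. Of these, 7 were called higher in PLC5, 3 were called higher in HA22T and 14 did not pass, with a median log2 difference of 0.27 beside -0.10 over all genes tested. Over all genes tested, 12.4% were called higher in PLC5 and 14.2% higher in HA22T. The calls higher in HA22T were thus about as frequent here as over all genes. NR1H4, the bile acid receptor FXR, was higher in PLC5 by 6.03 ± 0.38 (log2, SE, limma adjusted p = 1.05e-06) and was well above background on 1 of 3 HA22T siControl arrays. NR0B2, the co-repressor SHP, was higher in PLC5 by 2.42 ± 0.32 (adjusted p = 0.000220). HLF, a bZIP factor of the circadian output, was not well above background on any HA22T array. With HA22T at its bound, set as for PROX1 and likewise not a strict minimum, HLF was 4.31-fold higher in PLC5. The limma adjusted p of its fitted difference, 0.000303, rests on HA22T readings below background. HLF passed the filter through PLC5 alone, and without it 6 of 23 genes were called higher in PLC5. Among those 6 is NR1H4, which also reached the filter only with its PLC5 arrays. NR2F1, the orphan receptor COUP-TFI, was lower in PLC5 by -2.40 ± 0.42 on the log2 scale (adjusted p = 0.00162).

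Genes for hepatocyte products were mostly higher in PLC5. Of 28 such genes, 26 could be tested in siControl, 22 were called higher in PLC5, 0 were called higher in HA22T and 4 (HP, HPX, CYP7A1 and OTC) did not pass, with a median log2 difference of 5.82 over those tested. Of the 22, RBP4, APOC3, APOH and MTTP passed the filter through PLC5 alone. Without them 18 of 22 tested genes were called higher, and with them at their bounds the median was 5.75. Some of those 18 also reached the filter only with their PLC5 arrays. TTR, TF and G6PC1 were well above background on 1 of 3 HA22T siControl arrays, and APOB, AMBP, FGB, FGG and F10 on 2 of 3. Of the 28 genes, 14 were well above background on all 3 HA22T siControl arrays, among them the 4 that did not pass. TDO2 was too dim to be tested, and was well above background on 2 of 3 HA22T and 0 of 3 PLC5 siControl arrays. In the siGALNT1 arrays 22 of 26 tested genes were called higher in PLC5. There 1 gene, CYP7A1, was called higher in HA22T (PLC5 minus HA22T -1.51 on the log2 scale, limma adjusted p = 0.0344). RBP4, the retinol carrier, was not well above background on any HA22T siControl array. With HA22T at its bound, set as for PROX1, it was 589.5-fold higher in PLC5, which is likewise not a strict minimum. Its fitted difference had a limma adjusted p of 2.58e-07, which rests on HA22T readings below background. APOA2, APOB and TF, which encode apolipoproteins of HDL and LDL and transferrin, were higher in PLC5 by 10.01 ± 0.49, 9.55 ± 0.29 and 9.62 ± 0.48 on the log2 scale (adjusted p = 2.32e-07, 1.87e-08 and 2.41e-07), and the TF probe was well above background on only 1 HA22T siControl array. The sum of the signals of the 28 genes, in units of the array's 75th percentile, was 6.18 to 6.86 on the HA22T siControl arrays and 260.2 to 346 on the PLC5 siControl arrays. Of the hepatocyte markers ALB, TTR, TF, SERPINA1, APOA1, APOB and FGB, 7 of 7 were well above background on all 3 PLC5 siControl arrays and 3 of 7 on all 3 HA22T siControl arrays, with none of the 7 below background throughout.

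Mesenchymal markers that passed the test were higher in HA22T. Of 16 genes, 11 could be tested in siControl, 6 were called higher in HA22T and 0 higher in PLC5, with a median log2 difference of -2.01. Over all genes tested, 14.2% were called higher in HA22T. The 5 markers that did not pass lay on both sides of 0, with CDH2 at -1.49, ZEB2 at -0.60, SNAI1 at 0.16, TWIST2 at 0.48 and THY1 at 0.61. VIM (vimentin) was lower in PLC5 by -5.54 ± 0.43 on the log2 scale (limma adjusted p = 4.55e-06), TWIST1 by -4.32 ± 0.30 (adjusted p = 1.93e-06) and AXL by -3.32 ± 0.36 (adjusted p = 9.28e-05), with 1 non-uniform HA22T siControl spot of AXL left out. SPARC was not well above background on any PLC5 siControl array. With PLC5 at its bound, set as for PROX1 and likewise not a strict minimum, it was 15.5-fold higher in HA22T. Its fitted difference had a limma adjusted p of 9.73e-05, which rests on PLC5 readings below background. It passed the filter through HA22T alone, and without it 5 of 10 genes were called higher in HA22T. The summed signal of the mesenchymal markers was 62.2 to 117 on the HA22T siControl arrays and 6.07 to 12.8 on the PLC5 siControl arrays. VIM was the brightest of them in HA22T (mean log2 5.92). Of the 7 bile duct and progenitor markers, 5 could be tested, with a median log2 difference of -0.43. Of these, 2 were called higher in PLC5, CD24 by 3.22 ± 0.45 and SOX9 by 3.22 ± 0.27 (limma adjusted p = 0.000331 and 7.80e-06). SPP1, PROM1 and KRT7 had differences of -1.23, -0.64 and -0.43 and did not pass (limma adjusted p = 0.0530, 0.328 and 0.258). The summed signals were 151 to 206 in HA22T siControl and 130 to 174 in PLC5 siControl. Most of this came from KRT7, at mean log2 values of 7.34 and 6.91.

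Markers of other liver cells and of blood were measured because factors such as PROX1 are also found outside hepatocytes. Of 13 markers of stellate, endothelial and blood cells, 10 could be tested in siControl. Of these, 2 were called higher in PLC5, among them the endothelial gene PECAM1 by 5.41 ± 0.32 (log2, SE, limma adjusted p = 6.31e-07), and 1 was called higher in HA22T. LUM, a matrix gene of stellate cells, had a PLC5 minus HA22T difference of -6.12 ± 0.46 (limma adjusted p = 3.53e-06) and was well above background on only 1 of 3 PLC5 siControl arrays. The summed signal of the 13 genes was 26.4 to 45.9 on the HA22T siControl arrays and 36.3 to 52.2 on the PLC5 siControl arrays. Most of it came from PTPRC, read from the brightest of its 4 probes (mean log2 5.05 in HA22T and 5.10 in PLC5). The part of these genes in the line differences was not tested.

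**Figure D3:**
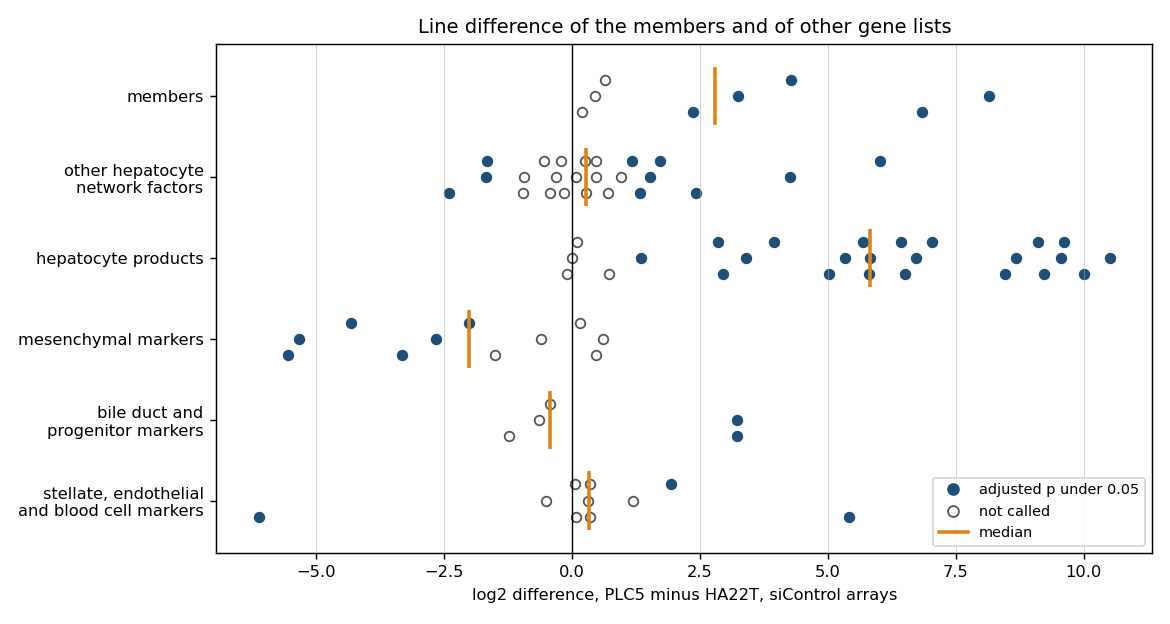
Log2 difference between PLC5 and HA22T in siControl arrays for each gene that could be tested, by gene list, with filled points for an adjusted p under 0.05 and orange bars for list medians. The members have 5 of 8 filled points, all to the right of 0 and with PROX1 among them, the other network factors lie on both sides, 22 of 26 hepatocyte products are filled to the right and 6 of 11 mesenchymal markers are filled to the left.

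Likeness to HNF4A was measured as the root mean square difference from it over the 12 arrays, after each gene was centered on its own mean. Among 15924 genes outside the 8, those nearest to HNF4A were GLYCTK (0.226 log2 units), HYAL3 (0.265), CCL14 (0.281), RPP25 (0.287) and SDSL (0.305). Their siControl line differences were 2.80, 2.89, 3.29, 3.10 and 3.03. The siControl arrays are among the 12 by which these genes were picked. Line differences near the 3.24 of HNF4A thus follow from the choice and are no separate result. The order of the members below likewise depends largely on the size of their line differences. Among the members with a value on all 12 arrays, CEBPA was the nearest to HNF4A at 0.979, followed by HNF4G at 1.36, FOXA1 at 1.40 and FOXA3 at 1.54. The distances of FOXA2 and PROX1 rest on HA22T readings mostly or wholly below background and are not given. ONECUT1 lacks a value on 2 arrays and was not compared, so it may lie nearer to HNF4A than CEBPA does.

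GALNT1 knockdown, the comparison for which the arrays were made, was examined next within each line. No hepatocyte factor changed beyond the test in either line. In HA22T, 0 of the 6 genes bright enough to be tested had an adjusted p under 0.05, beside 0.00275% of 36327 probes (1 probe, of GALNT1), and FOXA2 and PROX1 were too dim in HA22T to be tested. In PLC5 it was 0 of 8, beside 0% of 38070 probes. GALNT1 itself, at a log2 difference of -3.72, did not pass in PLC5, so the absence of calls there says little about smaller changes. At a fold of 1.5 and an unadjusted limma p under 0.05, which 2.87% of probes in HA22T and 1.29% in PLC5 reached, the members called were again 0 of 6 and 0 of 8. No member had an unadjusted p under 0.05. The median log2 change of the tested members was 0.10 in HA22T and -0.01 in PLC5, beside -0.10 and 0.04 over all genes tested.

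HNF4A changed by a log2 difference of 0.07 (95% confidence interval -0.87 to 1.00) in HA22T, where 2 of 3 same-numbered siGALNT1 arrays were higher, and by -0.25 (-1.19 to 0.68) in PLC5, where 0 of 3 were higher (limma adjusted p = 1.00 in both). CEBPA had 0.05 (-0.87 to 0.97) in HA22T and 0.24 (-0.68 to 1.16) in PLC5, where 3 of 3 same-numbered siGALNT1 arrays were higher. FOXA1 had 0.13 (-0.45 to 0.70) and -0.14 (-0.72 to 0.44), and FOXA3 had 0.17 (-0.40 to 0.75) and -0.02 (-0.60 to 0.55) in HA22T and PLC5. FOXA2 had 0.00 (-0.98 to 0.97) in PLC5.

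ONECUT1 differed by 0.41 (-0.26 to 1.08) between 2 and 2 arrays in HA22T, which did not overlap, and by 0.05 (-0.50 to 0.59) in PLC5 (limma adjusted p = 1.00 in both). With the non-uniform spots kept, the HA22T value was 0.76. PROX1 had -0.28 (-1.50 to 0.94) in PLC5, and in HA22T all its readings were below background in both groups, so that no fold is given. HNF4G was lower in 3 of 3 same-numbered HA22T siGALNT1 arrays, with a log2 difference of -0.38 (-1.15 to 0.38), and higher in 3 of 3 PLC5 ones, with 0.08 (-0.69 to 0.84). The difference between the lines in this effect was 0.46 ± 0.49 (SE) and had an adjusted p of 0.988. The other HNF4G probe had -0.01 in PLC5, where 1 of 3 same-numbered siGALNT1 arrays was higher, and was too dim to be tested in HA22T. The interaction between line and siRNA was called for 0 of the 6 genes that could be tested in both lines, each at a limma adjusted p of 0.988, beside 0% of 39100 probes (952 had an unadjusted p under 0.05).

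**Figure D4:**
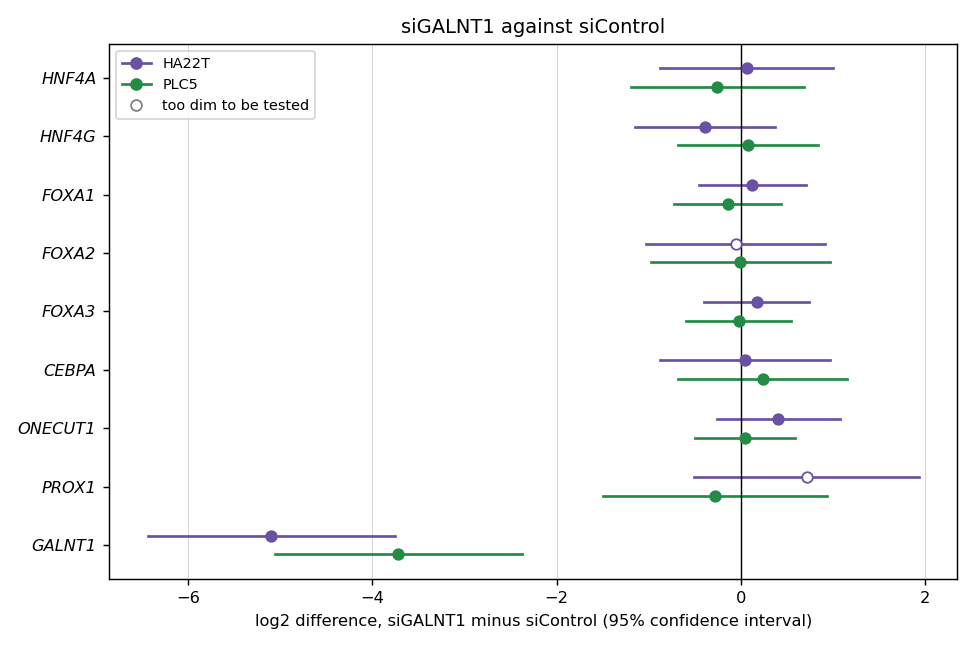
Log2 difference between siGALNT1 and siControl arrays with its 95% confidence interval from limma, in HA22T (purple) and PLC5 (green), with open points for genes too dim to be tested in that line. Every interval of a hepatocyte factor includes 0, whereas those of GALNT1 lie at -5.10 and -3.72.

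The other lists gave no call for siGALNT1 either, with 0 of 21 other network factors and 0 of 21 hepatocyte products in HA22T and 0 of 24 and 0 of 26 in PLC5 at a limma adjusted p under 0.05, and 0 of 11 and 0 of 10 mesenchymal markers. Among the tested genes of these 3 lists, the unadjusted limma p was under 0.05 in HA22T for NR0B2, which responds to the bile acid receptor NR1H4, the fibrinogen gene FGG and the glucose-6-phosphatase gene G6PC1, and for none in PLC5. Their log2 differences in HA22T were 1.15, -0.89 and 2.29. G6PC1 was well above background on 1 of 3 siControl and 2 of 3 siGALNT1 arrays of HA22T, and FGG on 2 and 1. The sizes for FGG and G6PC1 thus rest partly on readings below background, whereas NR0B2 was well above background on 3 of 3 HA22T arrays in both groups. Over all probes tested in HA22T, 1086 of 36327 had an unadjusted limma p under 0.05. NR0B2, FGG and G6PC1 were named after their values were seen.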

How the data were processed

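RNA was measured on 12 one-color arrays. The authors scanned them and analyzed the images with Feature Extraction (version 10.5.1.1, per the submitters' processing notes), and deposited intensity values per spot: the processed signal after background subtraction, and the median brightness of the spot and of its surroundings. A matrix of log2 values by probe, likewise deposited, served as an alternative. The design was annotated on an older build, so no probe coordinates are given.

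From the processed signal, log2 values were taken minus the 75th percentile of all spots that are not controls on the same array. Control spots and spots flagged as non-uniform were left out, as in the methods of the study, and spots of a probe were averaged. Each gene was represented by the brightest of its probes that had values in all groups, and 28174 of 50599 probes were named through RefSeq transcripts. One limma model (version 3.58.1, R version 4.3.3, functions lmFit and eBayes) held the 4 groups and no covariate, and p-values were adjusted by Benjamini and Hochberg over all probes tested. Testing required a probe to be well above background on 3 or more of the 6 arrays compared. The number of arrays limits the precision.

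The factors and the gene lists were chosen with earlier results of these data known, so counts over them are descriptions. Named from the other lists were up to 4 genes with the largest called siControl line difference. Others are named where a count, median or sum needed them. Some genes of the lists are counted but not reported by name here. Same-numbered HA22T arrays deviated from their group means together (correlations 0.550, 0.403 and 0.430), a pairing seen in the values and not stated in the labels; in PLC5 (0.706, -0.02 and 0.164) and between the lines (0.352, 0.345 and -0.04) this did not hold throughout. The fit was tested on simulated data. Alternatives were another background correction (normexp with offset 50, which used the median spot brightness), other scalings and filters, slide or replicate number as a block, averaging the probes of each gene, the methods' t-test, and leaving out each array.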

Additional observations from a re-analysis of the deposited data

How the results depend on the processing

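The 5 calls in siControl (HNF4A, FOXA2, CEBPA, ONECUT1 and PROX1 higher in PLC5) kept their direction and their side of the threshold under every alternative in which the probe was tested: normexp, quantile, median and deposited scalings, no filter, non-uniform spots kept, slide as a block, within slide 1, the replicate block, averaging the probes of each gene, the methods' t-test, a percentile over uniform spots (chosen after seeing the data) and leaving out each array. The exception is the filter asking for all 6 arrays, under which 2 of the members were called in siControl and 1 in siGALNT1, since the others were then too dim or incomplete to be tested. With the replicate block, 5 members were called in each siRNA state (HNF4A 3.24 in siControl) and 0 for siGALNT1 in either line, and the block changed no call of a member. It moved the calls over all probes from 8368 to 9265 in siControl, and the methods' t-test gave 6369. Without 1 array, the siControl difference ranged from 2.88 to 3.46 for HNF4A, 6.67 to 7.11 for FOXA2, 4.10 to 4.47 for CEBPA, 2.20 to 2.54 for ONECUT1 and 7.83 to 8.52 for PROX1. In siGALNT1, HNF4G passed under quantile normalization (0.88), where its adjusted p was 0.0489 and, over the alternatives that kept all arrays or slide 1, up to 0.532.

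All reversals were of differences that did not pass the test. In HA22T, normexp turned the siRNA change of HNF4A to -0.10 and of HNF4G to 0.19, and quantile and median scaling turned CEBPA to -0.0056 and -0.013. In PLC5, normexp turned FOXA3 to 0.070, and FOXA2 turned to 0.014 with quantile scaling, 0.0086 with median scaling, 0.0067 with the deposited table and 0.0036 with the percentile over uniform spots. The siGALNT1 line difference of FOXA3 turned to -0.023 with median scaling, -0.0047 with the deposited table and -0.22 with the percentile over uniform spots, and ranged from -0.19 to 0.21 without 1 array. Without 1 array, the siRNA change in HA22T ranged from -0.19 to 0.28 for HNF4A, -0.040 to 0.33 for FOXA1, -0.030 to 0.37 for FOXA3 and -0.50 to 0.44 for CEBPA. In PLC5 it ranged from -0.64 to 0.11 for HNF4A, -0.095 to 0.22 for HNF4G, -0.29 to 0.0054 for FOXA1, -0.20 to 0.12 for FOXA2, -0.10 to 0.081 for FOXA3, -0.030 to 0.11 for ONECUT1 and -0.53 to 0.014 for PROX1. The cause was not tested. Signal over background limits FOXA2, CEBPA and PROX1 in HA22T, and the PROX1 calls rest on HA22T readings below background.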
